A study of Mus musculus with 20 samples.

Results

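Gene expression was compared between XY gonads of reciprocal hybrid mouse embryos, 5 of the cross written (B6x129S1)F1 and 5 of the cross written (129S1xB6)F1, which are 10 of the 20 arrays of the series. The members were taken from the strain names in the labels, and no measured value entered the choice. Each array held the RNA of 1 pair of gonads from 1 embryo of embryonic day 11.5, staged at 17 to 21 tail somites and dissected free of the mesonephros. The parents of both crosses were the inbred strains C57BL/6J (B6) and 129S1/SvImJ (129S1), which were profiled with 5 arrays each and serve here only to show in which direction the parents differed. The embryos carried no mutation, transgene or treatment. Embryos of each cross came from several litters, so same-cross arrays can share a mother, and the tail somite count of a single embryo is not given in the labels. The sample names hold the letters C, E and F in (B6x129S1)F1 but only L and M in (129S1xB6)F1. The labels do not say whether a letter marks a litter. Between 200 and 450 ng of RNA was amplified per array and labelled with Cy5. The Cy3 channel held a common pool of embryonic day 11.5 tissue from Sox9-ECFP (C57BL/6J) by CD-1 embryos, to which 4 XY and 3 XX gonad pairs and 4 XY and 2 XX whole embryos contributed. All values below are log2 of the gonad signal over the pool signal, so a value of 0 is the level of the pool, and a difference is (B6x129S1)F1 minus (129S1xB6)F1 unless another is named.

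Both crosses give embryos with a C57BL/6J copy and a 129S1/SvImJ copy of every autosome. They differ in which parent gave which copy. An XY embryo has its X chromosome and its mitochondria from the mother and its Y chromosome from the father. Sex-linked and mitochondrial genes are thus where reciprocal hybrids can differ in their own genotype. Imprinted genes are read from the copy of a single parent, so there the hybrids can differ in which strain's copy is read. The mother, and with her the uterus and the decidua around the embryo, also differs in strain. By common convention the strain of the mother is written first in a cross, but the labels do not say which parent was the mother. At this stage the XY gonad turns from a bipotential primordium towards a testis: SRY raises SOX9 in the supporting cells, FGF9 and Sertoli genes follow, and WNT4 and RSPO1 signalling through beta-catenin, which drives the ovary, is held down.

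The arrays of the crosses were alike in quality and overlapped in overall profile. Between 77.9% and 88.0% of 41174 gene probes were well above background in Cy5, and the mean correlation of log ratios across probes was 0.875 between (B6x129S1)F1 arrays, 0.861 between (129S1xB6)F1 arrays and 0.868 between arrays of different crosses. The spread was also similar, at a median SD per probe of 0.207 for (B6x129S1)F1 and 0.222 for (129S1xB6)F1 arrays. Crosses were hybridised side by side on 4 slides. F2 and L4 lay on slide 2, C3 and L2 on slide 3, C2 and L1 on slide 4, and C4, E1, M3 and M6 on slide 5. Markers of gonadal somatic cells (Wt1, Gata4, Nr5a1, Lhx9, Emx2) averaged 2.43 to 3.02 above the pool in (B6x129S1)F1 arrays and 2.79 to 3.01 in (129S1xB6)F1 arrays. Nephric duct markers (Pax2, Pax8, Lhx1, Gata3, Cdh16) averaged -0.49 to 0.21 in (B6x129S1)F1 and -0.48 to 0.98 in (129S1xB6)F1, and the positive values came from F2, M3 and M6. Cdh16 weighed heavily in these means, as it read 1.49, 4.35 and 3.43 in F2, M3 and M6. Embryonic blood genes were the most uneven, from -0.67 to 0.55 for 4 erythroid markers in (B6x129S1)F1 arrays and from -0.79 to 1.74 in (129S1xB6)F1 arrays. The part that duct or blood tissue plays in single results was not tested, and with whole gonads fewer cells of a type and less RNA per cell cannot be told apart.

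Of 33617 probes tested, standing for 22988 genes or names, 2 differed between the crosses at an adjusted p under 0.05 (limma on these 10 arrays, Benjamini-Hochberg over all probes tested), which is 0.00595% of them. The X-linked gene Lancl3 was lower in (B6x129S1)F1 and the transcript BC022654 was higher. At an unadjusted p under 0.05 stood 1296 probes, or 3.86%, of which 656 were higher and 640 lower. For 201 probes (0.598%) the arrays of the crosses did not overlap, with (B6x129S1)F1 above for 162 and below for 39. The median difference over all probes was 0.0123 and the median SE was 0.140. The SE varied between probes, for example 0.09 for BC022654 and 0.92 for Cdh16, so each difference is to be read against its own SE.

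Lancl3 codes for a member of the LanC-like family, proteins related to the bacterial enzymes that form lanthionine bridges. It read 1.10, 1.82, 1.55, 1.97 and 1.64 in (B6x129S1)F1 gonads C2, C3, C4, E1 and F2, against 3.61, 5.12, 4.29, 5.16 and 4.28 in (129S1xB6)F1 gonads L1, L2, L4, M3 and M6 (per-array values are given in these orders throughout). The crosses were far apart, with the highest (B6x129S1)F1 array well below the lowest (129S1xB6)F1 array. The difference was -2.88 ± 0.28 (SE), which is 7.34-fold lower in (B6x129S1)F1 (adjusted p = 0.0063). It was present on every slide that held both crosses, at -2.65, -3.29, -2.51 and -2.96 on slides 2 to 5.

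The parents differed in Lancl3 in the same direction and by a similar amount. Its values were 1.42, 0.88, 0.71, 2.01 and 0.64 in C57BL/6J gonads (H1, H2, H3, H4, K2), against 4.87, 4.18, 5.85, 4.63 and 4.02 in 129S1/SvImJ gonads (A3, A4, A6, D4, G3). The (B6x129S1)F1 gonads thus lay in the range of C57BL/6J, and 4 of 5 (129S1xB6)F1 gonads in that of 129S1/SvImJ, with L1 just under it. The parental difference was -3.58 ± 0.36 (adjusted p = 1.8e-04). The parental difference minus the difference between the crosses was -0.70 ± 0.49 (adjusted p = 0.70, limma over all 20 arrays), which does not separate them. Lancl3 is measured by a single probe, well above background on all 10 arrays. Its log2 pool signal differed by -0.14 between the arrays of the crosses and its log2 gonad signal by -3.02.

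The genes beside Lancl3 on the X differed far less. The 6 tested genes on either side, in the gene order of assembly GRCm38.p6, differed between the crosses by -0.41 to 0.34, and none of these 12 stood at an unadjusted p under 0.05. Xk and Cybb, which code for a red cell membrane protein and a subunit of the phagocyte oxidase, differed by 0.20 ± 0.16 and 0.17 ± 0.11. H2ap, a histone H2A gene of the testis that is the sixth tested gene away, differed by 2.32 between the parents (adjusted p = 0.0089). In the crosses it read 4.24, 4.12, 3.88, 3.99 and 3.84 in (B6x129S1)F1 gonads, against 4.14, 3.98, 4.63, 3.96 and 4.60 in (129S1xB6)F1 gonads. The crosses overlapped and both lay between the parental means of 5.09 ± 0.48 in C57BL/6J and 2.77 ± 0.96 in 129S1/SvImJ (SD, n = 5 each).

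**Figure D1:**
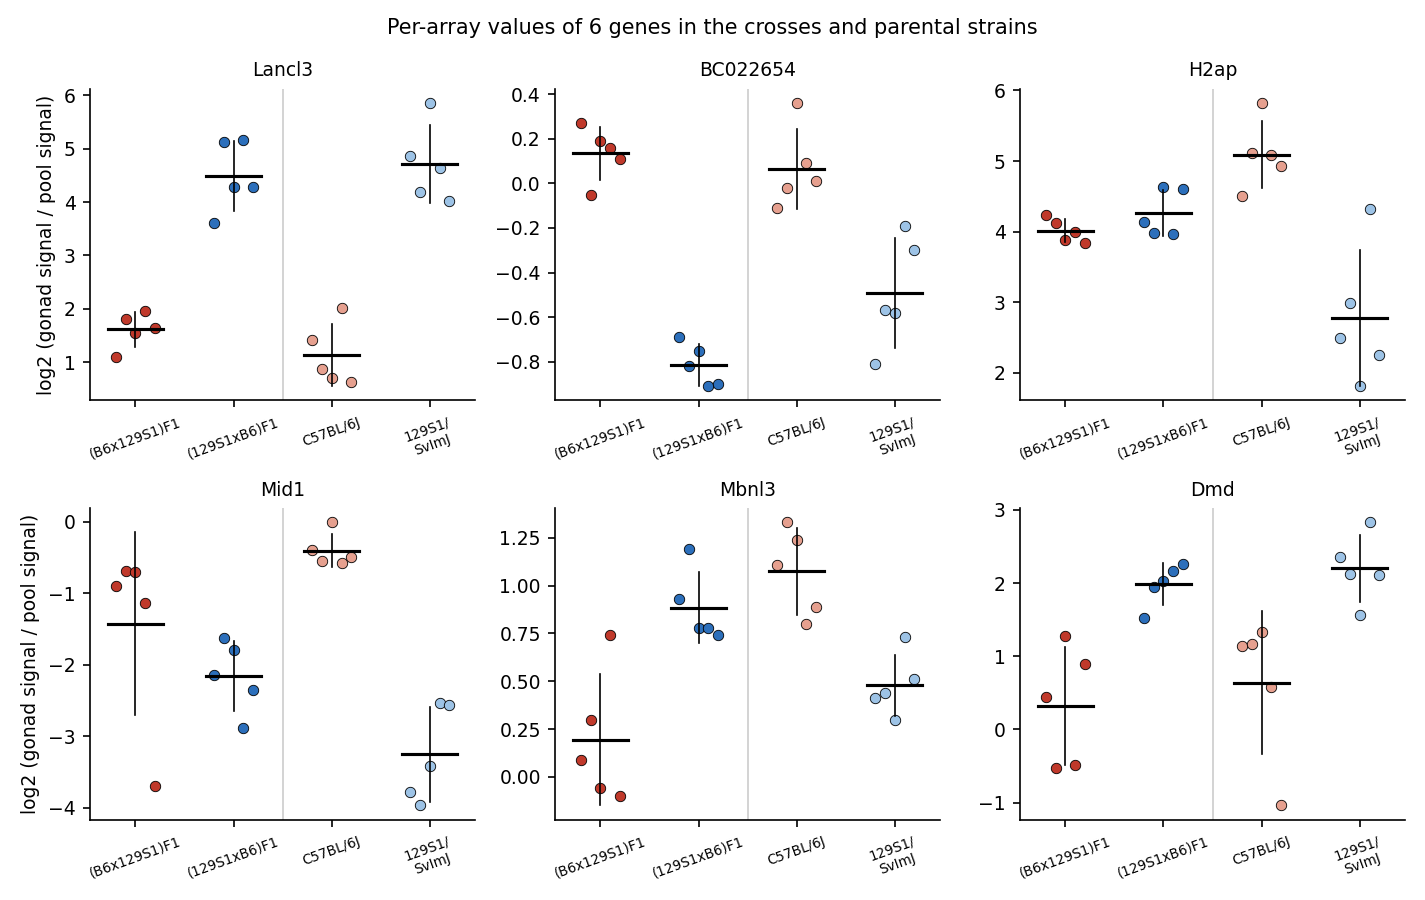
Log2 of gonad over pool signal for Lancl3, BC022654, H2ap, Mid1, Mbnl3 and Dmd, with 1 point per array, the mean as a horizontal bar and the SD as a vertical line, in (B6x129S1)F1, (129S1xB6)F1, C57BL/6J and 129S1/SvImJ. Lancl3 separates the crosses as it separates the parents (1.62 against 4.49, and 1.13 against 4.71), whereas H2ap differs between the parents and averages 4.01 and 4.26 in the crosses.

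BC022654, named only by the accession of its cDNA and without a chromosome in the gene table used, was the other call. It read 0.27, -0.05, 0.19, 0.16 and 0.11 in (B6x129S1)F1 gonads, against -0.69, -0.82, -0.75, -0.91 and -0.90 in (129S1xB6)F1 gonads. The arrays of each cross lay close together and the crosses were clearly apart. The difference was 0.95 ± 0.09, or 1.93-fold (adjusted p = 0.0063). Within slides 2 to 5 it was 0.86, 0.77, 0.96 and 1.08, and with slide as a block its adjusted p was 0.052. The call also ended with normexp background correction and loess (0.51 ± 0.07, adjusted p = 0.16) and with the Cy5 channel alone (0.86 ± 0.23, adjusted p = 1.0). C57BL/6J averaged 0.07 ± 0.18 and 129S1/SvImJ -0.49 ± 0.25, a difference of 0.56 in the same direction that missed the threshold (adjusted p = 0.051).

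**Figure D2:**
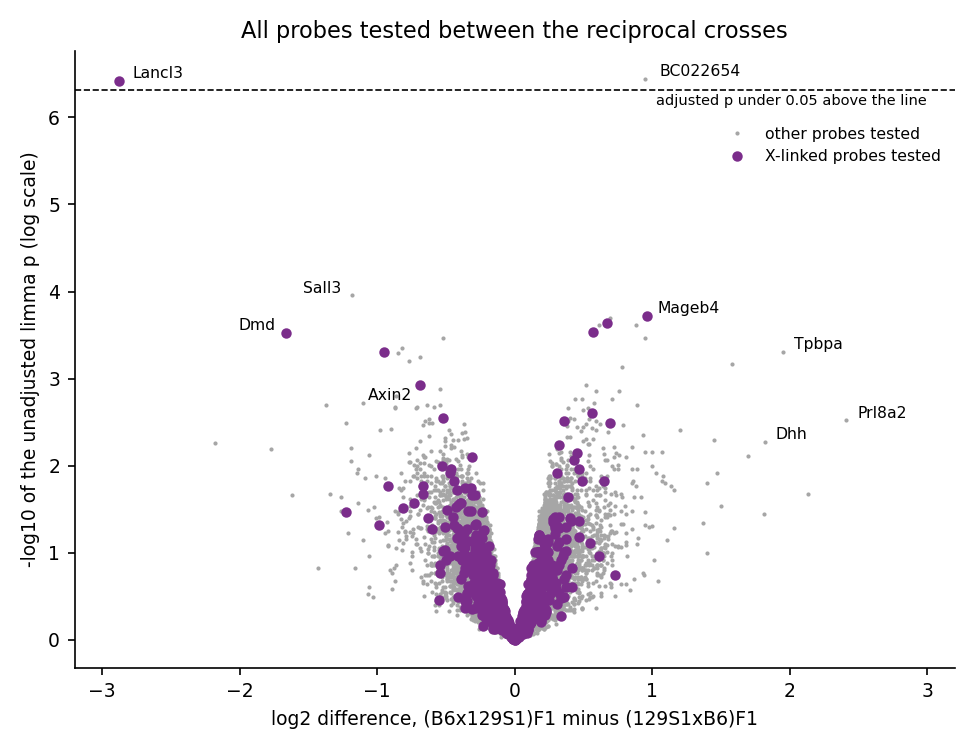
Each point is 1 of the 33617 probes tested, with the log2 difference, (B6x129S1)F1 minus (129S1xB6)F1, on the horizontal axis and -log10 of the unadjusted limma p on the vertical axis. Lancl3 and BC022654 stand alone above the dashed line, and the X-linked probes are drawn in purple.

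Beyond these 2 calls, the genes with the smallest p whose arrays did not overlap are given as values, since none passed the adjustment (adjusted p from 0.96 to 1.0). Those higher in (B6x129S1)F1 were Mageb4, a melanoma antigen family gene on the X read in germ cells (4.91 ± 0.33 against 3.95 ± 0.29, SD, with a log2 gonad signal higher by 0.53 and a log2 pool signal that differed by -0.43), Ptpre, a receptor-type tyrosine phosphatase (2.59 ± 0.21 against 1.90 ± 0.19), the X-linked lymphocyte-regulated gene Xlr4b (0.33 ± 0.15 against -0.33 ± 0.24), the brown-fat noncoding RNA Lncbate1 (above background on 3 of the (129S1xB6)F1 arrays), the placental prolactin Prl2b1, the X-linked Slc10a3, the melanocyte enzyme gene Dct (3.68 ± 0.21 against 2.74 ± 0.42), the trophoblast genes Tpbpa and Tpbpb, and Elmo1, an adaptor for RAC activation. The probes of Lncbate1, Tpbpa and Tpbpb each cleared background on 3 of the (129S1xB6)F1 arrays. They were tested through (B6x129S1)F1 alone, which selects for higher values there. Ptpre and Dct had a second probe in the same direction, at 0.46 ± 0.16 and 0.66 ± 0.21. The other probes of Xlr4b gave 0.34 ± 0.20 and 0.30 ± 0.23, and those of Elmo1 0.15 ± 0.13 and 0.28 ± 0.20. Elmo1 also differed between the parents by this probe alone, at 2.05 (adjusted p = 2.4e-04).

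Those lower in (B6x129S1)F1 after Lancl3 began with Sall3, a zinc finger transcription factor, at -3.84 ± 0.37 against -2.66 ± 0.36. Its direction was opposite to that of the parents, where C57BL/6J averaged -2.50 and 129S1/SvImJ -3.57 (adjusted p = 0.033), and its second probe gave -0.03 ± 0.28. Dmd, the gene of dystrophin on the X, read 0.44, -0.53, 1.28, -0.48 and 0.89 in (B6x129S1)F1 gonads, against 1.52, 1.95, 2.03, 2.16 and 2.26 in (129S1xB6)F1 gonads. That probe cleared background on 2 of the (B6x129S1)F1 arrays, its difference of -1.66 ± 0.33 had the sign and size of the parental one (-1.57, adjusted p = 0.070), and the other 2 tested probes of Dmd gave -0.35 ± 0.32 and -0.18 ± 0.12. The list went on with the X-linked aminopeptidase gene Xpnpep2 (-0.95 ± 0.20), Baiap2l1 (-0.85 ± 0.18 on a dim probe above background on 2 of the (B6x129S1)F1 and 4 of the (129S1xB6)F1 arrays, other probe -0.06), Ucp1, the uncoupling protein of brown fat (-0.69 ± 0.15), Mbnl3 (-0.69 ± 0.16), Sema3a (-0.54 ± 0.13, other probe -0.26), Piwil2 (-0.86 ± 0.21) and Trmt2b (-0.52 ± 0.14, other probe -0.01). For Piwil2 only the ratio was lower: its log2 gonad signal was higher by 0.16 in (B6x129S1)F1 and its log2 pool signal by 1.02. Of these 20 genes, 8 lay on the X: Lancl3, Mageb4, Xlr4b, Slc10a3, Dmd, Xpnpep2, Mbnl3 and Trmt2b. Among all probes tested 931 of 33617 were X-linked, and arrays did not overlap for 1.61% of X-linked and 0.496% of autosomal probes. The 20 were picked for low p, and the Dmd probe was tested through (129S1xB6)F1 alone, so the count carries no test.

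X-linked probes were more often at low p between the crosses than autosomal ones. Below an unadjusted p of 0.05 lay 60 of 931 X-linked probes (6.44%), against 1038 of 27234 autosomal probes (3.81%), and at p under 0.01 were 15 (1.61%) against 135 (0.496%). Among the 15 X-linked probes at p under 0.01, 11 differed in the direction of the parents, against 65 of 132 autosomal probes that were also tested between the parents. Of the 11 only Lancl3 was called between the parents, and for Chic1, Atp7a and Xlr4b the parental differences were 0.04, 0.04 and 0.06. Over all 925 X-linked probes tested in both comparisons, 489 (52.9%) had the parental direction. These shares are counts over probes of the same 10 arrays and carry no test. The X-linked probes were about as often higher (450) as lower (481), and their median difference was -0.01.

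Lancl3 was the exception rather than the rule among X-linked genes that separated the strains. Between C57BL/6J and 129S1/SvImJ, 1313 of 34882 probes were called (3.76%), among them 13 of 965 X-linked probes (1.35%), all 13 of which were also tested between the crosses. Only 6 of the 13 differed between the crosses in the direction of the parents, and the median difference signed towards C57BL/6J was -0.25 (-0.13 without F2). That median was -0.66 on slide 2 but 0.10, 0.06 and 0.16 on slides 3 to 5, and -0.06 with normexp and -0.02 with Cy5 alone, so its direction was not settled. For 1059 autosomal probes called between the strains 471 had the parental direction (44.5%), with a median of -0.03. Lancl3 alone among the 13 was called between the crosses. For 8 of the 13 the parental difference departed from the cross difference at an adjusted p under 0.05 (limma over all 20 arrays, a contrast added after the data were seen), against 655 of 1059 autosomal probes (61.5% and 61.9%).

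Mid1, a ubiquitin ligase gene that spans the boundary of the pseudoautosomal region in C57BL/6J, showed a split within a cross. It read -0.90, -0.69, -0.71, -1.14 and -3.70 in (B6x129S1)F1 gonads, against -2.15, -1.63, -1.80, -2.88 and -2.35 in (129S1xB6)F1 gonads. All but F2 of the (B6x129S1)F1 gonads were higher than any (129S1xB6)F1 gonad, while F2 was the lowest of all 10. The difference was 0.73 ± 0.52 (adjusted p = 1.0) and 1.30 without F2 (adjusted p = 1.0). C57BL/6J averaged -0.41 and 129S1/SvImJ -3.25, a difference of 2.85 (adjusted p = 1.6e-04), and the brightest probe of Mid1 gave 0.47 ± 0.23 between the crosses and 0.86 between the parents (adjusted p = 0.14).

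Several of the 13 had the sign opposite to the parents, and none of these was called between the crosses. Mbnl3, a muscleblind-family splicing regulator, read 0.09, 0.30, -0.06, 0.74 and -0.10 in (B6x129S1)F1 gonads, against 0.93, 1.19, 0.78, 0.78 and 0.74 in (129S1xB6)F1 gonads. Its arrays barely separated the crosses, with E1 just under M6, and the lower cross was the one whose name begins with the parent of higher Mbnl3: C57BL/6J averaged 1.07 and 129S1/SvImJ 0.48. The parental difference minus that of the crosses was 1.28 (adjusted p = 9.5e-04). Mid1ip1, a regulator of lipid synthesis, gave -0.60 ± 0.28 between the crosses and 1.23 between the parents. Pak3, a kinase of the p21-activated family that acts in neurons, gave 0.36 ± 0.20 and -0.88, and the calcium pump gene Atp2b3 gave -0.34 ± 0.27 and 0.99, where F2 at 1.32 was the lowest (B6x129S1)F1 gonad (-0.13 without it). Armcx3 gave -0.32 ± 0.12 and -0.61 by the probe called between the strains, but its brighter probe gave 0.39 ± 0.15 and 0.05. The remaining Map7d3, Dcaf12l1, Cldn34c1, Ssxb1 and Rhox13 differed by -0.31 to 0.14 between the crosses.

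**Figure D3:**
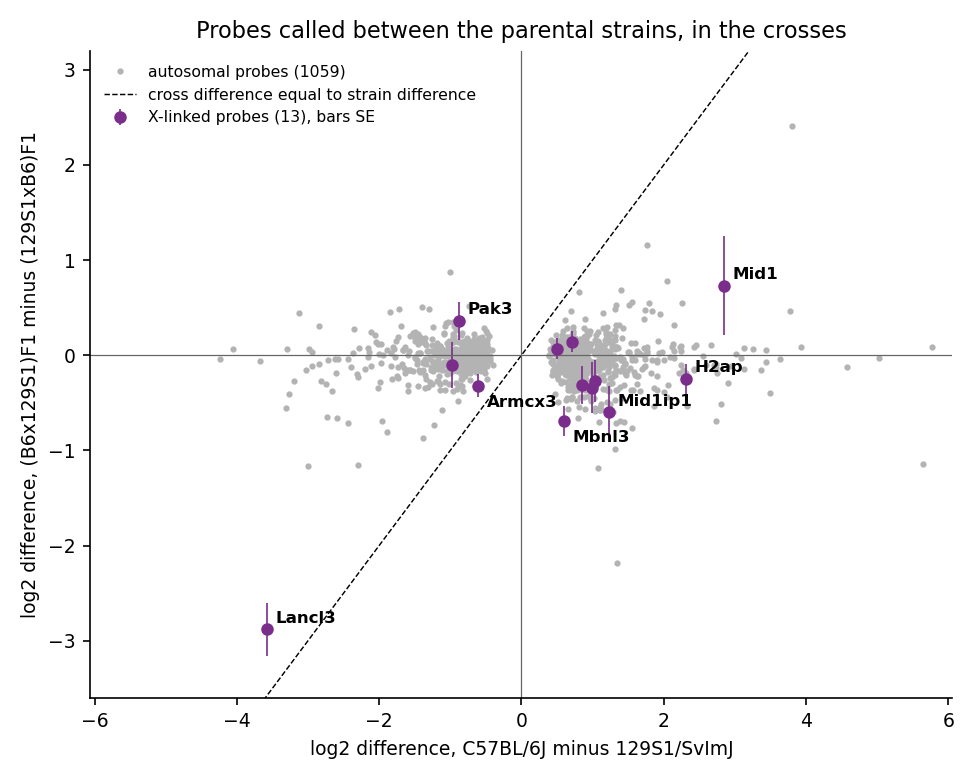
For every probe called between C57BL/6J and 129S1/SvImJ and tested between the crosses, the log2 difference between the strains is on the horizontal axis and the log2 difference between the crosses on the vertical axis, for 13 X-linked probes (purple, bars SE) and 1059 autosomal probes (grey). Lancl3 lies near the line of equal differences, Mid1 is displaced towards it, and H2ap and most others lie near 0 on the vertical axis.

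No Y-linked probe was called between the crosses. Of 16 tested Y-linked probes of 14 genes, 8 were higher and 8 lower in (B6x129S1)F1, with a median of -0.05. The largest difference at low p was that of Rbmy, an RNA-binding protein gene of the Y that acts in male germ cells, which read 3.50, 3.18, 2.59, 3.31 and 2.30 in (B6x129S1)F1 gonads, against 3.49, 4.30, 3.58, 3.72 and 4.27 in (129S1xB6)F1 gonads (-0.90 ± 0.25, unadjusted p = 0.0038, adjusted p = 1.0). Only C2 of the (B6x129S1)F1 gonads reached the lowest (129S1xB6)F1 value. Rbmy is a multicopy family, so its probe can read several near-identical copies. The zinc finger gene Zfy2 gave -0.43 ± 0.14 by its lower-p probe and -0.18 ± 0.13 by the other. The broadly expressed Y genes Eif2s3y, Ddx3y and Kdm5d differed by -0.11 ± 0.16, -0.11 ± 0.17 and -0.17 ± 0.13. Uba1y alone of the Y-linked probes was called between the parents, at -1.13 for C57BL/6J minus 129S1/SvImJ (limma adjusted p = 0.022). Between the crosses it gave -0.42 ± 0.39. Xist, the RNA that coats the inactive X of XX cells, read 0.18 ± 0.14 in (B6x129S1)F1 and 0.15 ± 0.12 in (129S1xB6)F1 on its only probe. XY cells lack this RNA and the pool held XX tissue, so these values go against what Xist RNA should give. The reason was not tested, and the probe was not used as a check of sex. Mitochondrially encoded genes had no named probe on the array.

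The testis pathway tended to stand higher in (B6x129S1)F1, without a single call. Of 27 tested genes of the male pathway list, 21 were higher and 6 lower, with a median difference of 0.41, against 0.02 over 22988 genes. At an unadjusted p under 0.05 were 8 members higher and none lower, where 2.23% and 1.66% of all genes stood. Their list mean was 2.09, 1.95, 2.30, 1.77 and 2.11 in (B6x129S1)F1 gonads, against 2.07, 1.70, 1.11, 1.33 and 1.83 in (129S1xB6)F1 gonads. L1, L2 and M6 reached or approached the range of the other cross, while L4 and M3 lay well below it. Within slides 2 to 5 the median difference of the list was 0.85, 0.12, 0.06 and 0.48, largest on slides 2 and 5. The parents averaged 1.41 in C57BL/6J and 1.36 in 129S1/SvImJ, both under the crosses.

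The members with the smallest p were Dhh and Ptgds. Dhh, the hedgehog ligand by which Sertoli cells instruct Leydig cells, read 6.05, 5.81, 6.35, 4.16 and 6.19 in (B6x129S1)F1 gonads, against 5.00, 3.86, 2.54, 3.1 and 4.97 in (129S1xB6)F1 gonads. The crosses overlapped only through E1, and the difference was 1.82 ± 0.53 (unadjusted p = 0.0053, adjusted p = 1.0). Ptgds, the prostaglandin D synthase that helps maintain SOX9, read 3.49, 3.33, 3.41, 1.95 and 3.32 in (B6x129S1)F1 gonads, against 2.98, 1.34, 0.68, 1.13 and 2.11 in (129S1xB6)F1 gonads (1.45 ± 0.42). E1 was again the lowest of its cross, and L4 and M3 the lowest of theirs. The cell adhesion scaffold gene Nedd9 (0.43 ± 0.14, other probe 0.19 ± 0.16), the pantetheinase gene Vnn1 (0.41 ± 0.14), tescalcin (Tesc, 1.09 ± 0.38) and the collagen gene Col9a3 (1.40 ± 0.50) followed. Amh, the Sertoli hormone that removes the Müllerian ducts, gave 0.61 ± 0.28. Sox9 itself read 0.78 ± 0.40 in (B6x129S1)F1 and 0.58 ± 0.58 in (129S1xB6)F1, a difference of 0.20 ± 0.27 (other probes -0.09 and 0.01), and Fgf9 gave 0.24 ± 0.23. The lower members were Nr5a1, Dmrt1, Fgfr2, Gadd45g, Map3k4 and Etv5, at -0.34 to -0.12.

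The female pathway list leaned the other way. Of 20 tested genes 6 were higher and 14 lower in (B6x129S1)F1, with a median of -0.22. At an unadjusted p under 0.05 were 4 lower and none higher, where 1.66% and 2.23% of all genes stood. The 4 include Axin2, whose probe passed the filter on dim probes through (129S1xB6)F1 alone, which selects for lower values in (B6x129S1)F1. The list mean was 0.31, 0.14, 0.08, 0.57 and 0.04 in (B6x129S1)F1 gonads, against 0.38, 0.38, 0.48, 0.61 and 0.30 in (129S1xB6)F1 gonads, where E1 and C2 reached the other cross. Within slides 2 to 5 the median was -0.51, -0.13, -0.06 and -0.09. The strains were further apart, at 0.74 in C57BL/6J and 0.20 in 129S1/SvImJ, and there the first-named strain of (B6x129S1)F1 was the higher.

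Axin2, the negative feedback inhibitor of canonical WNT signalling, had the smallest p of the list. It read -1.29, -2.67, -2.14, -1.47 and -2.19 in (B6x129S1)F1 gonads, against -0.93, -1.44, -0.61, -0.27 and -1.0 in (129S1xB6)F1 gonads. Only C2 overlapped the other cross, with a value above that of L2. The probe cleared background on 3 of the (B6x129S1)F1 arrays and was tested through (129S1xB6)F1 alone. The difference was -1.10 ± 0.28 (unadjusted p = 0.0019, adjusted p = 1.0). Sp5, a WNT-induced transcription factor, read 1.02, 0.96, 0.03, 1.41 and 0.40 in (B6x129S1)F1 gonads, against 1.10, 1.48, 1.99, 2.22 and 1.94 in (129S1xB6)F1 gonads (-0.98 ± 0.27, unadjusted p = 0.0039). In C57BL/6J minus 129S1/SvImJ both differed in the opposite direction, by 0.86 (adjusted p = 0.055) for Axin2 and by 1.31 (adjusted p = 9.6e-04) for Sp5. Bmp2, a growth factor of the ovarian pathway, gave -0.51 ± 0.15, Lypd6 -0.42 ± 0.18, Msx1 -0.37 ± 0.16 and Lef1 -0.37 ± 0.17, and the ligands Wnt4 and Rspo1 gave -0.40 ± 0.20 and -0.35 ± 0.19. The other probe of Lypd6 gave -0.02 ± 0.17, whereas those of Msx1 and Lef1 gave -0.58 ± 0.25 and -0.56 ± 0.2. The WNT target list, which holds Axin2 and Sp5, was mixed: of 16 tested, 7 were higher and 9 lower, with a median of -0.06. The median of this list within slides 2 to 5 was 0.16, -0.26, 0.03 and -0.06. At an unadjusted p under 0.05 were 1 higher and 4 lower, Axin2 again among the lower, where 2.23% and 1.66% of all genes stood. The higher one was Dkk1, a secreted WNT inhibitor (0.95 ± 0.43). Foxl2, the later ovarian transcription factor, differed by 0.14 ± 0.09, Fst by -0.22 ± 0.24 and Gng13, which differed by 3.37 between the parents (adjusted p = 4.1e-05), by -0.15 ± 0.25.

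Genes of the bipotential gonad differed little. Of 20 tested, 7 were higher and 13 lower, with a median of -0.11, and Emx2, a homeobox gene needed to form the gonad, had the smallest p (-0.55 ± 0.22). Their list mean ran from 0.72 to 0.94 in (B6x129S1)F1 arrays and from 0.77 to 0.98 in (129S1xB6)F1 arrays.

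**Figure D4:**
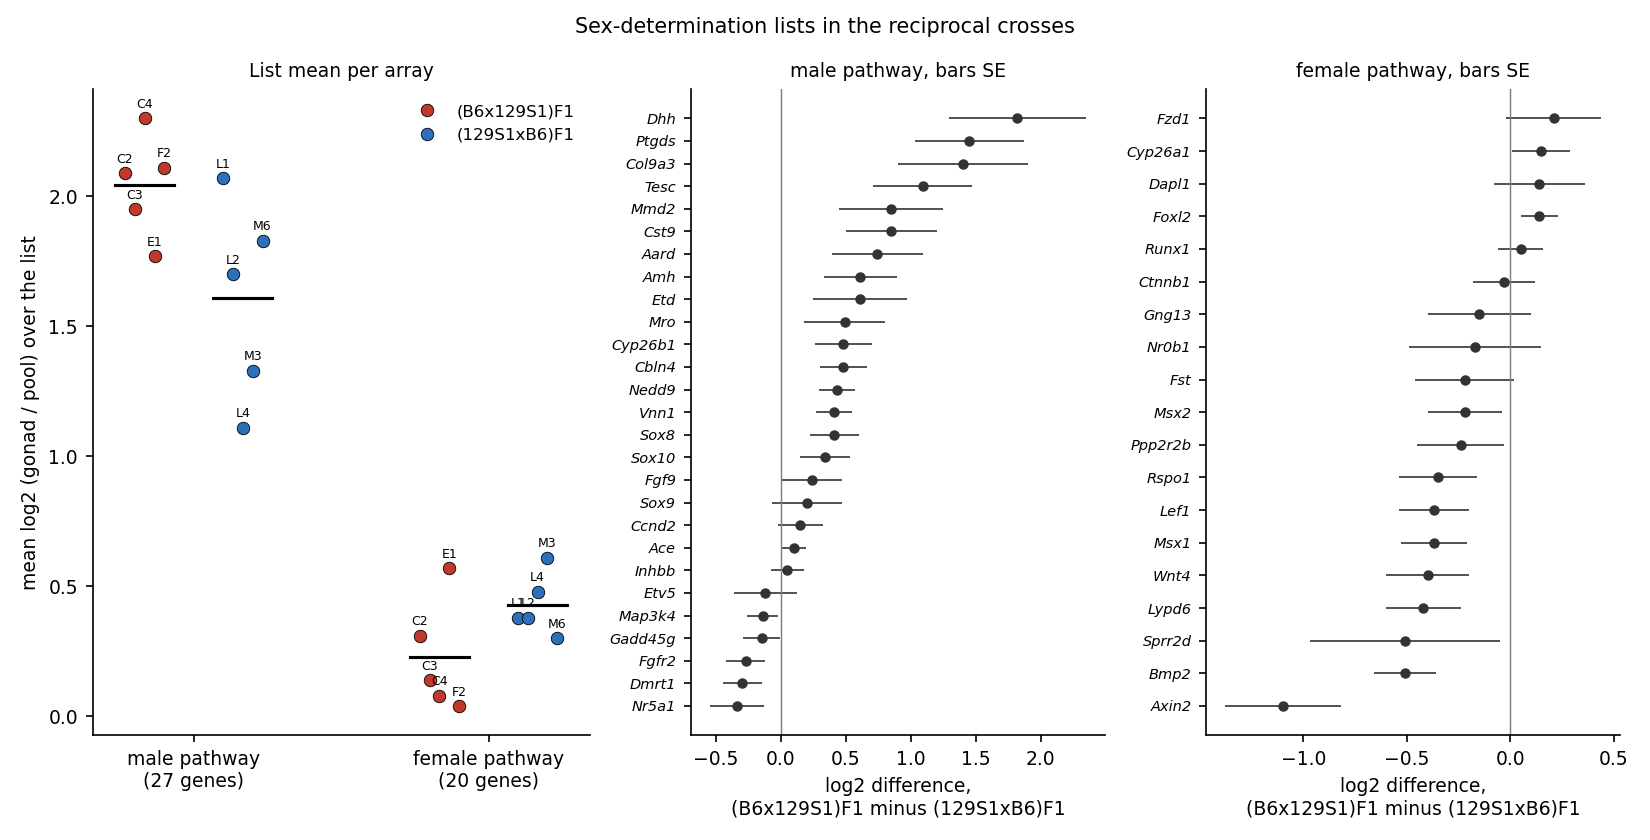
The left panel gives the mean log2 of gonad over pool signal over the male pathway list (27 genes) and the female pathway list (20 genes) for each array, named beside its point, with (B6x129S1)F1 in red left of (129S1xB6)F1 in blue and the mean of the cross as a bar. The other panels give the differences of the members with their SE, from 1.82 for Dhh down to -0.34 for Nr5a1 in the male list and down to -1.10 for Axin2 in the female list, where a single member is not drawn.

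Germ cell genes showed no common direction, with 13 of 25 tested genes higher and 12 lower and a median of 0.01. Piwil2, the PIWI protein that silences transposons in male germ cells, read 3.71, 3.41, 3.46, 2.95 and 2.90 in (B6x129S1)F1 gonads, against 4.73, 3.79, 3.96, 3.87 and 4.39 in (129S1xB6)F1 gonads. All (B6x129S1)F1 ratios lay below, by -0.86 ± 0.21 (unadjusted p = 0.0016). However, the log2 pool signal of the probe was higher by 1.02 on the (B6x129S1)F1 arrays, more than the ratio differed. Its log2 gonad signal was higher there by 0.16, so the gonad signal itself was not lower. No other Piwil2 probe was tested. Lin28a, a regulator of let-7 processing, gave -0.54 ± 0.17. The stem cell factor Sall4 gave 0.30 ± 0.10 with all (B6x129S1)F1 gonads above on its brightest probe, but -0.23 ± 0.16 on the other. The 5 germ cell markers Pou5f1, Dppa3, Kit, Dazl and Ddx4 averaged 3.66 to 4.49 in (B6x129S1)F1 arrays and 3.64 to 4.51 in (129S1xB6)F1 arrays.

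No imprinted gene was called. Among 27 paternally expressed genes tested, 15 were higher and 12 lower, and among 30 maternally expressed genes 17 were higher and 13 lower, with a median of 0.02 in each list and no call. At an unadjusted p under 0.05 stood 1 paternally expressed gene, Snrpn, a spliceosome protein gene of the Prader-Willi region (-0.52 ± 0.18), and 2 maternally expressed genes, the zinc finger gene Zim1 (-0.72 ± 0.24) and the tetraspanin gene Tspan32 (0.60 ± 0.24). Zim1 read 1.70, 1.06, 1.29, 1.50 and 0.65 in (B6x129S1)F1 gonads, against 1.74, 2.04, 2.60, 2.03 and 1.39 in (129S1xB6)F1 gonads, so that the crosses overlapped through M6. Copg2 gave -0.79 ± 0.40 by its brightest probe and -0.81 ± 0.42 and -0.40 ± 0.15 by the others, with L1 at -0.25 and the other (129S1xB6)F1 gonads at 0.71 to 1.08 on the brightest. The noncoding RNAs Meg3, Rian and Mirg gave 0.22 ± 0.14, -0.51 ± 0.45 and 0.22 ± 0.25. An array of total RNA measures both copies of a gene together, so which parental copy was read was not measured.

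Genes of the placenta and decidua, which are not part of the gonad, gave several of the larger differences, without a call. Among these, the listed probes of Prl8a2, Tpbpa, Tpbpb and Prl2c5 were tested through (B6x129S1)F1 alone. The list, prolactin-family, trophoblast-specific protein and pregnancy-specific glycoprotein genes together with placental Ceacam genes, was taken by gene family name after values of several members had been seen, so its counts only describe these arrays. Of 27 tested members 22 were higher and 5 lower, with a median of 0.21, and 12 stood higher and none lower at an unadjusted p under 0.05, where 2.23% and 1.66% of all genes stood. Of these members 6, with 5 of the 12, passed the filter on dim probes through (B6x129S1)F1 alone, which selects for higher values there, so the counts over all members support nothing. Among the 20 members that cleared background on at least 4 arrays of each cross, a choice made after the data were seen, 16 were higher and 4 lower, with a median of 0.14, and 7 stood higher and none lower at an unadjusted p under 0.05. The list mean was 0.95, 0.89, 0.97, 0.87 and 0.94 in (B6x129S1)F1 gonads, against 0.44, 0.50, 0.79, 0.16 and 0.12 in (129S1xB6)F1 gonads. The (B6x129S1)F1 gonads were close to each other and all above, and M3 and M6 were lowest. Like the medians within slides, this mean covers all 27 members with the 6 selected ones, so the separation supports nothing. Within slides 2 to 5 the median difference was 0.13, 0.26, 0.32 and 0.35. The strains averaged 0.86 in C57BL/6J and 0.37 in 129S1/SvImJ, the same order.

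Prl8a2, a prolactin-family hormone made by the decidua, which is tissue of the mother, read 4.74, 4.38, 4.40, 2.98 and 6.25 in (B6x129S1)F1 gonads, against 2.20, 2.54, 3.97, 0.62 and 1.35 in (129S1xB6)F1 gonads. E1 and L4 overlapped, and the probe was clearly above background on 3 of the (129S1xB6)F1 arrays. Its fitted difference was 2.41 ± 0.64 (unadjusted p = 0.0030, adjusted p = 1.0), of a probe tested through (B6x129S1)F1 alone, and it was 3.80 between the parents (adjusted p = 5.6e-04), with 4.54 ± 1.08 in C57BL/6J and 0.74 ± 0.46 in 129S1/SvImJ. Tpbpa, a marker of the spongiotrophoblast, which is tissue of the embryo, read 3.07, 1.67, 1.87, 3.09 and 1.60 in (B6x129S1)F1 gonads, against 0.93, 0.40, 0.87, 0.33 and -0.98 in (129S1xB6)F1 gonads. All (B6x129S1)F1 gonads lay above, by 1.95 ± 0.41 (unadjusted p = 4.9e-04), and the probe cleared background on 3 of the (129S1xB6)F1 arrays. Prl2c5, a proliferin, read 3.69, 2.99, 4.40, 3.00 and 3.75 in (B6x129S1)F1 gonads, against 2.35, 1.98, 4.11, -0.77 and -0.47 in (129S1xB6)F1 gonads, where L4 lay among the (B6x129S1)F1 values. Its fitted difference was 2.13 ± 0.80, and this probe too cleared background on 3 of the (129S1xB6)F1 arrays. The other Prl2c5 probe gave a smaller difference, 0.65 ± 0.27. Prl7a1 gave 1.14 ± 0.41 and Prl3b1, placental lactogen 2, 0.50 ± 0.13, whereas Prl3d1, placental lactogen 1 of the giant cells, gave 0.11 ± 0.09. Whether the RNA of these genes came from the gonads or from adhering tissue was not tested.

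**Figure D5:**
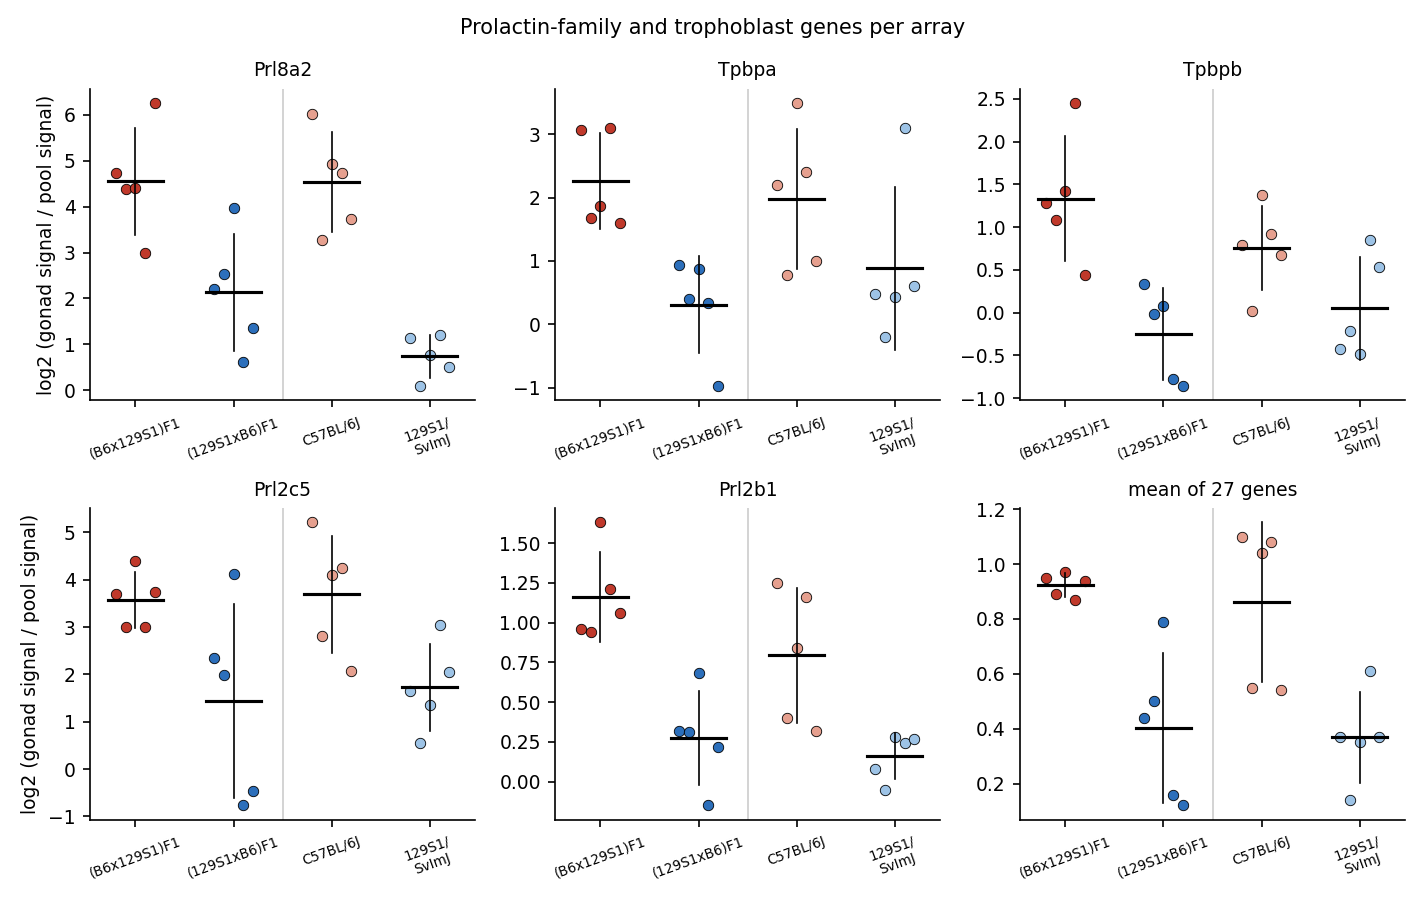
Log2 of gonad over pool signal for Prl8a2, Tpbpa, Tpbpb, Prl2c5 and Prl2b1 and the mean over 27 placental genes, with 1 point per array, the mean as a horizontal bar and the SD as a vertical line, in (B6x129S1)F1, (129S1xB6)F1, C57BL/6J and 129S1/SvImJ. The mean of the 27 genes, 6 of them tested through (B6x129S1)F1 alone, is 0.87 to 0.97 in (B6x129S1)F1 and 0.12 to 0.79 in (129S1xB6)F1.

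Other cell types and cell states gave no call. The endothelial list (16 genes) had a median difference of 0.06, the macrophage list (14) -0.04, the erythroid list (14) -0.09, the mesonephros list (17) 0.08, the interstitial list (15) 0.13 and the cell cycle list (21) 0.02. Among steroidogenic genes Akr1b7, an aldose reductase relative of the adrenal, gave 0.95 ± 0.40 and Cyp11a1, the side chain cleavage enzyme, -0.59 ± 0.28, in opposite directions within a list whose median was 0.10. Within the interstitial list the hedgehog pathway genes Ptch1, Gli2 and Gli1 gave 0.26 ± 0.10, 0.30 ± 0.16 and 0.19 ± 0.13, and Hhip, the hedgehog-interacting protein gene, gave -0.21 ± 0.32. Neural genes, which lie far below the pool, had a median of 0.15. FGF targets, hypoxia and glycolysis, heat shock and immediate early genes had medians of -0.04, -0.09, -0.16 and 0.06. Cdh16, a cadherin of kidney tubules, read -0.26, -0.19, -0.46, -0.73 and 1.49 in (B6x129S1)F1 gonads, against 0.22, -0.30, -0.69, 4.35 and 3.43 in (129S1xB6)F1 gonads. F2, M3 and M6 alone were high, and these are the gonads whose mean over the duct markers was positive. Cdh16 is itself among those markers, so this match is built in and shows nothing further.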

How the data were processed

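Two-colour Agilent arrays of 20 gonad pairs were read from the deposited scanner files, 1 per array. Per the file headers, Feature Extraction 9.1.3.1 (protocol GE2-v5_91_0806) subtracted background, detrended and LOWESS-normalised the dyes to give the deposited Cy5 and Cy3 intensity values. The deposited log10 ratio of the same files equalled the log of those intensities to within 0.01 for 93.2% to 96.5% of values per cross array. The authors' deposited log2 value table, whose normalisation is not given in the sources used here, correlated at 0.935 to 0.960 with the ratios used and had array medians of 0.013 to 0.031 in the crosses. Its scale and direction were taken from that match. Other deposited columns, 0 or 1 flags per the file headers, marked outlier spots and spots above background.

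Here log2(Cy5/Cy3) was averaged over the spots of a probe, without control spots and non-uniform outliers (45018 spots, 43379 for genes, 41174 probes). Probes were named through the accession (22951), symbol (6659), synonym (3109) or file name (8455), with RefSeq's table of assembly GRCm38.p6. A probe was tested if its Cy5 spot cleared background on 4 or more of the 5 arrays of a cross and measured on at least 3 of each. The test was limma 3.58.1 (lmFit, eBayes, R 4.3.3) on 10 arrays, with Benjamini-Hochberg adjustment over all 33617 probes and a threshold of 0.05. The fit was also run on simulated data with known differences, larger than most reported here, and independent noise per array. That run does not cover shared litters or slides, or smaller differences. The strains were fitted alike on their own 10 arrays. The number of arrays limits the precision, and p-values treat embryos of a litter as independent. A gene in a list was represented by its brightest tested probe.

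The members, the 23 gene lists and the tests were chosen with earlier results of these data known. Named genes were those called, the 10 smallest p in each direction with arrays that do not overlap (clone names passed over), X-linked strain genes, Y-linked genes, male and female pathway members, up to 4 of each other list and the most changed imprinted genes. Single results of some list members are not reported here. The placental list and the contrast of parental against cross difference were added after seeing the data. Alternatives were normexp (offset 50) with loess, the deposited table, Cy5 alone, median centring, all 20 arrays, slide as a block, sample letter (which may mark litters, as the labels do not state) as a random block, other filters, an intensity trend, the brightest probe per gene, and each array left out. Arrays of different crosses on the same slide deviated together little (mean r 0.105 over 7 pairs, against -0.0402 over 18 pairs on different slides).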

Additional observations from a re-analysis of the deposited data

Results flagged for a closer look

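In some groups of 5 arrays the highest or lowest array stood far from the nearest other by Dixon's ratio. Chance gives this in about 1 in 20 groups, and it was met in 17 of 212 pairs of gene and cross and in 6 of 66 pairs of list and cross. F2 was the lone array for Mid1 (-3.70, others -1.14 to -0.69), Rlim by its lower-p probe (0.22, others 1.12 to 1.33), Sema3a (-0.92, others -0.46 to -0.29) and the duct markers (0.21, others -0.49 to -0.33). E1 was the lone array for Ptgds (1.95, others 3.32 to 3.49), Dhh (4.16, others 5.81 to 6.35) and Tnfrsf19 (0.51, others -0.62 to -0.30). Other (B6x129S1)F1 arrays were C4 for Mageb4 (5.47) and the macrophage list (-0.20), C2 for Xlr4b (0.08) and Zfy1 (0.19), and C3 for the neural markers (-3.14). Among (129S1xB6)F1 arrays, L1 stood apart for Rlim by another probe (0.48), Copg2 (-0.25) and Prl7c1 (0.42), L4 for Prl3b1 (0.81), Prl3d1 (0.54) and Prl3d2 (1.71), M6 for Zfy2 (0.98), Psg22 (1.06) and the bipotential list (0.77), M3 for the gonadal somatic markers (3.01), and L2 for the neural markers (-3.04).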

How the results depend on the processing

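Lancl3 was called under all 11 alternatives that keep the 10 arrays and in all 10 fits without 1 array, with differences of -2.94 to -2.0 and adjusted p of 0.0013 to 0.016 in the first and -3.10 to -2.71 and 0.0019 to 0.042 in the second. BC022654 was called in 8 of those 11 and in 10 of 10. The count of called probes was 1 with normexp and loess, 1 with Cy5 alone and 1 with slide as a block, and 2 to 3 without 1 array; the third, without E1, was the X-linked dystrophin relative Drp2. Of probes called between the parental strains there were 856 with normexp and loess and 1637 with slide as a block. The median of the X-linked strain genes, -0.25, was -0.06 with normexp, -0.02 with Cy5 alone, -0.66, 0.10, 0.06 and 0.16 within slides 2 to 5, and -0.27 to -0.13 without 1 array, F2 giving the last. The male pathway median was 0.85 on slide 2 and 0.33 to 0.49 without 1 array. The female pathway median was -0.51 on slide 2, -0.06 on slide 4, -0.09 on slide 5 and -0.33 to -0.12 without 1 array, and the WNT target median was 0.16 on slide 2 and -0.17 to 0.02 without 1 array. No list member was called under any alternative run for the lists. Refits of the named probes reuse the same arrays, so a kept sign says little. Of 4143 refits of 199 named probes, 4073 kept their sign and 39 were called, and 170 of the probes kept their sign in every refit. The causes were not tested. The cross arrays carry codes in place of shared replicate numbers. With 5 arrays a cross, probes near background and differences near or below their own SE (median 0.140) are the least certain.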

Other observations

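A few genes far apart between the parental strains or the crosses on 1 probe are given as values. Il15, a cytokine gene, differed by 5.64 between C57BL/6J and 129S1/SvImJ on 1 probe (adjusted p = 5e-06), and by 0.20 on the other (adjusted p = 0.44). The first probe read 1.30 ± 0.87 in (B6x129S1)F1 against 2.44 ± 0.48 in (129S1xB6)F1 (SD, n = 5 each, limma adjusted p = 1.0), the direction opposite to the parents, and the other gave 0.09 ± 0.09 (SE). Ugt2b37, a glucuronosyltransferase gene, gave -2.18 ± 0.64 between the crosses on 1 probe (unadjusted p = 0.0055, adjusted p = 1.0) and -0.01 ± 0.13 on the other. Gbp2b, an interferon-inducible guanylate-binding protein gene, was lower in C57BL/6J than in 129S1/SvImJ by -2.30 (adjusted p = 0.013) and gave -1.15 ± 0.38 between the crosses (adjusted p = 1.0). Of 95 autosomal probes called between the strains with a difference over 2, 48 had the parental sign between the crosses and none was called. These genes were chosen after their values were seen.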
